A study of Oryza sativa Japonica Group with 6 samples.

Results

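Thioredoxins, glutaredoxins and the enzymes that remove superoxide and peroxide were followed in chilled rice seedlings. The members are the 106 loci whose description in the deposited table names thioredoxin, glutaredoxin, peroxiredoxin, superoxide dismutase, catalase, ascorbate peroxidase, dehydroascorbate, glutathione reductase or glutathione peroxidase, and whose level was at least 1 RPKM in at least 2 of the 6 libraries. They were taken from 116 loci with such a description, and they make up 106 of the 19438 loci tested. RPKM is the number of reads on a locus scaled to its exonic length and to the library total. The seedlings were Oryza sativa Japonica of the cultivar Lijiangxintuanheigu (LTH), with no mutation or transgene named in the labels. They were 2 weeks old when they were held for 24 h at 11 °C, 13 °C or 25 °C, and RNA came from stems and leaves together. The series design gives 2 biological replicates per temperature, and the 25 °C seedlings serve here as the comparison for the 11 °C and 13 °C seedlings.

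Plant cells form superoxide and hydrogen peroxide in chloroplasts, mitochondria and peroxisomes, above all when light is absorbed faster than carbon is fixed, as can happen in chilled leaves. Superoxide dismutases turn superoxide into hydrogen peroxide, which catalases, ascorbate peroxidases, glutathione peroxidases and peroxiredoxins remove, while monodehydroascorbate reductase and glutathione reductase regenerate the ascorbate and glutathione used. Thioredoxins and glutaredoxins are small proteins that reduce disulfide bonds in other proteins; in chloroplasts, light-driven electrons reach thioredoxins through ferredoxin and ferredoxin-thioredoxin reductase, and NADPH feeds the other thioredoxin reductases and glutathione reductase.

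The 6 libraries held 15964798 to 18754726 reads, so 1 read on a transcript of 1 kb corresponds to 0.0533 to 0.0626 RPKM. Replicates correlated across the 106 members, which are not independent of each other, with r = 0.982 for the 11 °C pair, 0.992 for the 13 °C pair and 0.975 for the 25 °C pair. The 6 green shoot markers of Rubisco, Rubisco activase and chlorophyll binding were all present, and their summed level was 5510 to 7150 RPKM at 11 °C, 21400 to 22000 at 13 °C and 33800 to 48400 at 25 °C. Rubisco activase (LOC_Os11g47970) made up most of the 25 °C sum; without it the other 5 summed to 6100 and 4900 RPKM at 11 °C, 17200 and 17100 RPKM at 13 °C and 6800 and 11800 RPKM at 25 °C, highest at 13 °C. Of 5 root markers, 4 were in the table; the proline-rich protein locus LOC_Os02g44310 was at 0 in 5 of 6 libraries, and the sum was 1.74 and 1.91 RPKM at 11 °C, 12.5 and 12 RPKM at 13 °C and 18.6 and 13.4 RPKM at 25 °C, most of it from the aquaporin NIP2-1 at 13 °C and 25 °C. The clock gene listed as CCA1 had 113 and 115 RPKM at 11 °C, 251 and 386 RPKM at 13 °C and 1650 and 2450 RPKM at 25 °C, whereas GIGANTEA had 448 and 597, 313 and 381, and 9.89 and 18.4 RPKM at those temperatures. The part of cell type makeup in the results was not tested. Temperature and time of day cannot be told apart for any change below, since no source used here gives the hour of collection; in whole shoots, fewer cells of a type and less RNA per cell cannot be told apart either. Loci written in upper case in the table have a level of 0 in every replicate 2 library, which replicate 1 does not share, so differences were also taken within each replicate number.

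Changes below are differences in log2(RPKM + 1) with their standard error, and a member is said to have risen or fallen when the p of limma, fitted without a replicate block and adjusted over all tested loci of that comparison, was below 0.05. Fold values are ratios of mean RPKM, which are larger than the log2 differences for members at low level. Unless its paragraph says otherwise, a member named as risen or fallen kept that call when any 1 library was left out.

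At 11 °C the members moved mostly down: 19 of 106 rose (17.9%) and 36 fell (34.0%) against 25 °C. Of all tested loci, 28.6% rose and 21.4% fell. The median difference of the members was -0.29, and that of all tested loci 0.13. At 13 °C, 30 members rose (28.3%) and 24 fell (22.6%) against 25 °C, an order that turned with quantile normalization (28 and 29) and median-of-ratios scaling (27 and 29). Of all tested loci, 26.3% rose and 17.0% fell at 13 °C. The members' median was 0.01 and that of all loci 0.12, and the members' median turned to -0.07 with quantile normalization and -0.16 with median-of-ratios scaling. The 11 °C and 13 °C results share the 25 °C libraries, so they are given side by side. Counted as fallen at both temperatures are glutaredoxin-C1 and C11, which met the level limit only through the 25 °C libraries. Counted as risen at both is the TTL1-type LOC_Os01g42960, which met it only through the 13 °C libraries. Directly between the cold temperatures, 10 members were higher at 11 °C than at 13 °C (9.43%) and 24 were lower (22.6%), and 17.2% and 18.2% of all tested loci were called in these directions; the medians were -0.28 for the members and -0.02 for all loci. Without replicate 2 at 11 °C, 12 members rose at 11 °C against 25 °C. Without replicate 2 at 13 °C, 19 rose at 13 °C against 25 °C. The 34 calls between 11 °C and 13 °C became 19 or 22 without replicate 1 or 2 at 11 °C, 23 or 18 without replicate 1 or 2 at 13 °C. Within each replicate number, all 55, 54 and 34 called members had the direction of their call, which a call from 2 libraries per temperature all but requires.

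**Figure D1:**
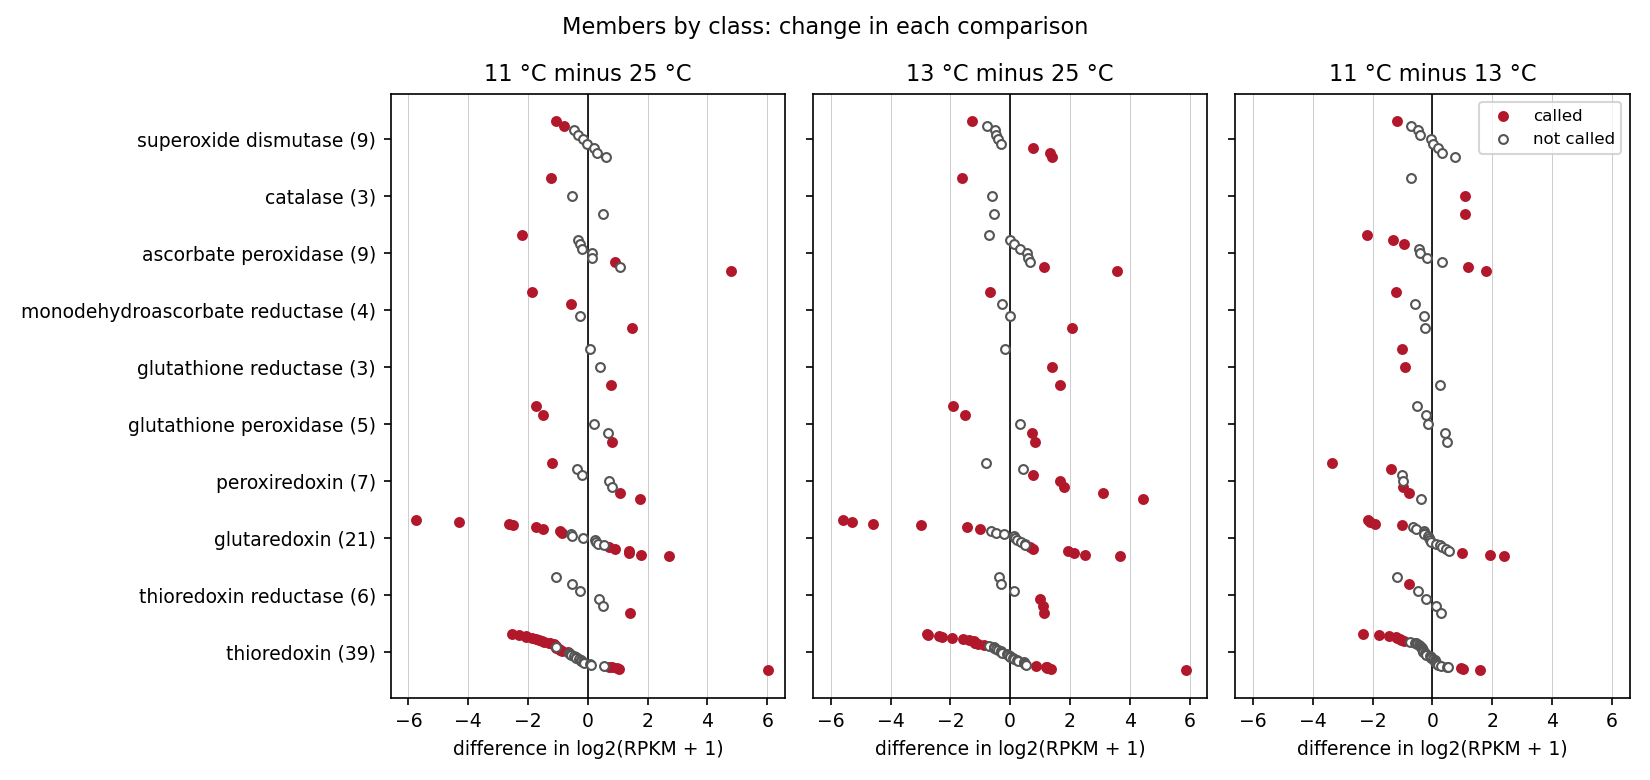
Difference in log2(RPKM + 1) of every member, 1 point each, by class (number of members in brackets) for 11 °C minus 25 °C, 13 °C minus 25 °C and 11 °C minus 13 °C; filled points were called by limma. At 11 °C thioredoxins lie mostly left of 0 (19 of 39 fell), at 13 °C peroxiredoxins lie mostly right of it (5 of 7 rose), and the glutaredoxins spread to both sides.

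Summed over all 106 members, the level was 6482 and 6474 RPKM at 11 °C, 8517 and 9337 RPKM at 13 °C and 9824 and 10070 RPKM at 25 °C. Thioredoxins held the most, with 2563 and 2322 RPKM at 11 °C, 3170 and 3254 RPKM at 13 °C and 4454 and 4366 RPKM at 25 °C. The catalase sum was 798 and 855 RPKM at 11 °C, 1112 and 1297 RPKM at 13 °C and 1806 and 1811 RPKM at 25 °C. In both classes the libraries of the 3 temperatures did not overlap and stood in the order of temperature. Peroxiredoxins were ordered otherwise, with 273 and 287 RPKM at 11 °C, 555 and 663 RPKM at 13 °C and 176 and 272 RPKM at 25 °C. Ascorbate peroxidases also had their highest sum at 13 °C, at 1001 and 917 RPKM, beside 684 and 697 at 11 °C and 684 and 605 at 25 °C. These sums are descriptions with no test, and a few abundant members set most of each.

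**Figure D2:**
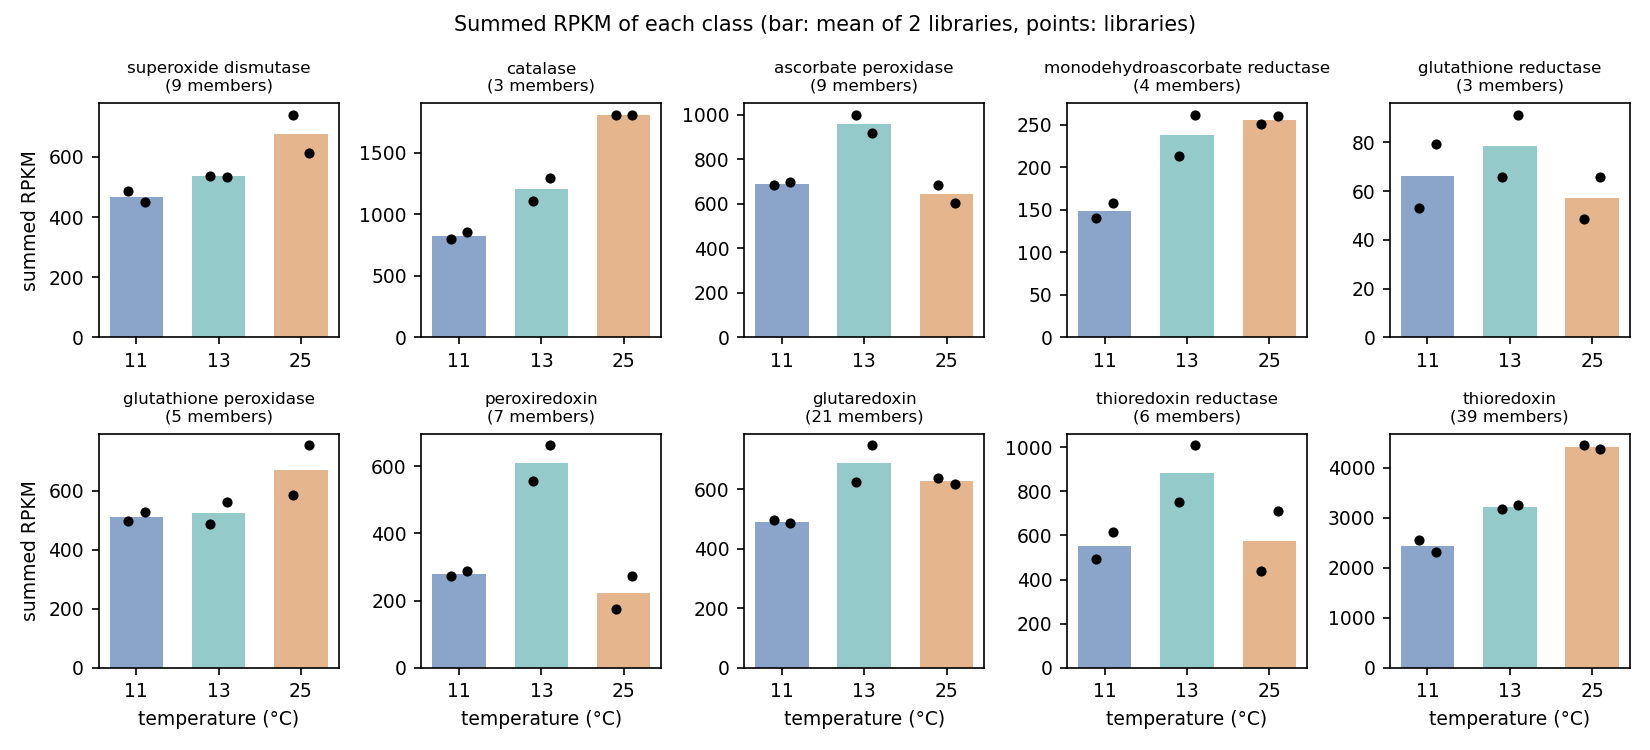
Summed RPKM of each class of members at 11, 13 and 25 °C; bars are means of 2 libraries and points the libraries. Thioredoxin, catalase and superoxide dismutase sums are highest at 25 °C, and peroxiredoxin and ascorbate peroxidase sums at 13 °C (917 to 1001 RPKM for ascorbate peroxidases).

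The 9 superoxide dismutase loci are 8 dismutases and the copper chaperone that loads the copper-zinc type. By limma, none rose and 2 fell (22.2%) at 11 °C, beside 28.6% risen and 21.4% fallen of all tested loci. At 13 °C, 3 rose (33.3%) and 1 fell (11.1%), beside 26.3% and 17.0%. At 11 °C, 0 of the 9 had an unadjusted limma p below 0.05 upward and voom called 0 up. The chloroplastic copper-zinc enzyme (LOC_Os08g44770, chromosome 8, 28132337 to 28135562) had 19.7 and 26.1 RPKM at 11 °C, 51.2 and 54.6 RPKM at 13 °C and 16.9 and 22.8 RPKM at 25 °C. It was high only in the 13 °C libraries, and the 11 °C and 25 °C libraries overlapped. It rose by 1.39 ± 0.24 at 13 °C against 25 °C (limma, adjusted p = 0.00256) and was lower by -1.19 ± 0.24 at 11 °C than at 13 °C (adjusted p = 0.00742), a call lost without replicate 1 at 11 °C (adjusted p = 0.0533). The chloroplastic iron enzyme 1 (LOC_Os06g02500) and the mitochondrial manganese enzyme (LOC_Os05g25850) also rose at 13 °C, by 1.32 ± 0.44 and 0.77 ± 0.24. Within replicates 1 and 2 the rise was 1.40 and 1.25 for the iron enzyme and 0.80 and 0.73 for the manganese enzyme. The iron enzyme's call was lost without replicate 2 at 13 °C or replicate 1 at 25 °C. The manganese enzyme's call was lost without either 13 °C library or replicate 1 at 25 °C. With a library left out, their differences were 0.84 to 1.81 and 0.58 to 0.95.

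The cytosolic copper-zinc dismutases did not share this rise. Copper-zinc dismutase 2 (LOC_Os03g11960) had 96.3 and 69.3 RPKM at 11 °C, 82.1 and 63.1 RPKM at 13 °C and 211 and 143 RPKM at 25 °C. All cold libraries lay below both 25 °C libraries, with differences of -1.08 ± 0.28 at 11 °C and -1.26 ± 0.28 at 13 °C. Limma gave adjusted p = 0.0142 and 0.00831; without replicate 2 at 11 °C or replicate 1 at 25 °C the 11 °C value was 0.0727 to 0.0998, and without replicate 2 at 13 °C the 13 °C value was 0.0615. Copper-zinc dismutase 1 (LOC_Os03g22810), the member of the class with the highest mean level, fell by 0.80 ± 0.27 at 11 °C (adjusted p = 0.0397, and 0.0605 to 0.261 without replicate 2 at 11 °C, either 13 °C library or replicate 1 at 25 °C). The second locus described as copper-zinc dismutase 2 (LOC_Os07g46990), a further copper-zinc locus, iron enzyme 2 and the copper chaperone were not called in any comparison. The copper chaperone (LOC_Os04g48410) had 30.9 and 27.9 RPKM at 11 °C, 26.9 and 31.2 RPKM at 13 °C and 57.8 and 29.3 RPKM at 25 °C, so 1 of its 25 °C libraries lay far from the other.

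Catalases break hydrogen peroxide down without a reductant, in leaves mostly in peroxisomes. Catalase-1 (LOC_Os03g03910, chromosome 3, 1787648 to 1790957) was among the most abundant members, with 643 and 764 RPKM at 11 °C, 1060 and 1240 RPKM at 13 °C and 1624 and 1677 RPKM at 25 °C. The 3 temperatures did not overlap, and the level was lowest at 11 °C. It fell by 1.23 ± 0.26 at 11 °C against 25 °C (limma, adjusted p = 0.00551, but 0.0587 without replicate 1 at 11 °C). The 13 °C difference of -0.53 ± 0.26 did not pass (0.145). Catalase isozyme A (LOC_Os02g02400) had 134 and 71.5 RPKM at 11 °C, 42.7 and 48.2 RPKM at 13 °C and 169 and 118 RPKM at 25 °C, lowest at 13 °C, where it fell by 1.62 ± 0.33 (adjusted p = 0.00505). Isozymes A and B (LOC_Os06g51150) were both higher at 11 °C than at 13 °C, by 1.09 ± 0.33 and 1.08 ± 0.23. These calls were lost without replicate 1 at 11 °C or replicate 2 at 13 °C, and for isozyme A also without replicate 1 at 13 °C (adjusted p = 0.0865 to 0.191 for A, 0.0584 to 0.0601 for B).

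Ascorbate peroxidases reduce hydrogen peroxide with ascorbate in the cytosol, peroxisomes, mitochondria and chloroplasts. Of 9 members, 2 rose (22.2%) and 1 fell (11.1%) at 11 °C, beside 28.6% and 21.4% of all tested loci. At 13 °C, 2 rose (22.2%) and none fell, beside 26.3% and 17.0%. There, 0 members had an unadjusted limma p below 0.05 downward and voom called 0. The class median at 11 °C was 0.13 and did not stay above 0 under other scalings (-0.05 with quantile normalization). The locus described as putative ascorbate peroxidase 6 (LOC_Os08g41090, chromosome 8, 25971764 to 25974968) had 49.8 and 84.0 RPKM at 11 °C, 22.0 and 34.4 RPKM at 13 °C and 0.795 and 2.18 RPKM at 25 °C. Each cold library lay far above both 25 °C libraries, whose values rest on 19 and 60 reads. It rose by 4.78 ± 0.38 at 11 °C, or 45.0-fold (limma, adjusted p = 5.97e-05), and by 3.58 ± 0.38 at 13 °C, or 19.0-fold (0.000264). Its 11 °C libraries were also above its 13 °C libraries (1.20 ± 0.38, adjusted p = 0.0412), a call lost without replicate 2 at 11 °C or replicate 1 at 13 °C (0.196 to 0.222). Cytosolic ascorbate peroxidase 1 (LOC_Os03g17690) rose by 0.92 ± 0.23 at 11 °C (adjusted p = 0.0105; without replicate 2 at 11 °C it was 0.0773).

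Cytosolic ascorbate peroxidase 2 (LOC_Os07g49400, chromosome 7, 29583717 to 29586497) was the 1 member of the class that fell at 11 °C. It had 37.7 and 33.2 RPKM at 11 °C, 171 and 161 RPKM at 13 °C and 244 and 113 RPKM at 25 °C. The 11 °C libraries stood below the other 4, while both 13 °C libraries lay between the 25 °C libraries. Its difference was -2.20 ± 0.34 at 11 °C against 25 °C (limma, adjusted p = 0.00126), 0.01 ± 0.34 at 13 °C against 25 °C (0.992) and -2.20 ± 0.34 at 11 °C against 13 °C (0.00223). Chloroplastic ascorbate peroxidase 8 (LOC_Os02g34810), a thylakoid-bound enzyme in rice, had 106 and 90.8 RPKM at 11 °C, 278 and 221 RPKM at 13 °C and 111 and 117 RPKM at 25 °C. It was high only at 13 °C, where it rose by 1.12 ± 0.22 (adjusted p = 0.00463), and it was lower at 11 °C than at 13 °C by -1.33 ± 0.22 (0.00297). Of the loci described as ascorbate peroxidase 4, the abundant LOC_Os08g43560 was not called in any comparison, at 245 and 201 RPKM at 11 °C, 316 and 284 RPKM at 13 °C and 198 and 202 RPKM at 25 °C. Its namesake LOC_Os09g36750 was higher at 11 °C than at 13 °C by 1.78 ± 0.43 (adjusted p = 0.0152, and 0.0735 to 0.0883 without replicate 2 at 11 °C or replicate 1 at 13 °C). The chloroplastic ascorbate peroxidase 7 (LOC_Os04g35520), at 2.02 to 6.63 RPKM, was lower at 11 °C than at 13 °C by -0.95 ± 0.27 (adjusted p = 0.0282, and 0.0748 to 0.179 without either 11 °C library or replicate 2 at 13 °C). The neighbouring loci for chloroplastic ascorbate peroxidases 5 and 6 (LOC_Os12g07830 and LOC_Os12g07820), 706 bases apart, were not called in any comparison.

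Of the 4 monodehydroascorbate reductase loci, which regenerate ascorbate from its oxidized radical, LOC_Os02g47800 and LOC_Os08g44340 moved in opposite directions. LOC_Os02g47800, described as cytoplasmic isoform 2 (chromosome 2, 29229964 to 29234195), had 34.6 and 40.9 RPKM at 11 °C, 77.1 and 102 RPKM at 13 °C and 140 and 142 RPKM at 25 °C. The temperatures did not overlap, and it fell by 1.88 ± 0.22 at 11 °C (limma, adjusted p = 0.000346). At 13 °C its difference was -0.66 ± 0.22 (adjusted p = 0.0444), lost when any 1 of the 6 libraries was left out (0.0628 to 0.285); it was lower at 11 °C than at 13 °C by -1.22 ± 0.22 (0.00474). LOC_Os08g44340 had 35.6 and 48.0 RPKM at 11 °C, 58.4 and 67.3 RPKM at 13 °C and 12.7 and 15.6 RPKM at 25 °C, and rose by 1.49 ± 0.24 at 11 °C and 2.08 ± 0.24 at 13 °C (0.00139 and 0.000355). In this gene every cold library lay above both 25 °C libraries. LOC_Os09g39380, at 53.4 to 83.6 RPKM, fell by 0.57 ± 0.20 at 11 °C (adjusted p = 0.0444), a call lost when any 1 of the 6 libraries was left out (0.0834 to 0.203), and the chloroplastic LOC_Os08g05570 was not called. No locus with a plain dehydroascorbate reductase description was among the members.

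Glutathione reductase returns oxidized glutathione to its thiol form with NADPH. The cytosolic locus (LOC_Os02g56850) had 37.1 and 57.4 RPKM at 11 °C, 33.1 and 44.9 RPKM at 13 °C and 38.9 and 48.6 RPKM at 25 °C, overlapping at all temperatures, and was not called. The chloroplastic loci LOC_Os03g06740 and LOC_Os10g28000 rose at 13 °C, by 1.40 ± 0.33 and 1.68 ± 0.24 (limma, adjusted p = 0.0106 and 0.00107). LOC_Os03g06740 had 13.5 and 19.5 RPKM at 11 °C, 28.0 and 40.3 RPKM at 13 °C and 9.05 and 16.2 RPKM at 25 °C, so only the 13 °C libraries stood apart. LOC_Os10g28000 also rose at 11 °C, by 0.77 ± 0.24 (adjusted p = 0.0316), and both loci were lower at 11 °C than at 13 °C (adjusted p = 0.0473 and 0.0222). Leaving out single libraries ended 4 of these 5 calls. For LOC_Os03g06740 the adjusted p reached 0.068 at 13 °C, without replicate 2 at 13 °C or replicate 1 at 25 °C, and 0.228 between the cold temperatures, where omitting any of the 4 cold libraries ended the call. LOC_Os10g28000 reached 0.154 at 11 °C, lost without either 11 °C library or replicate 1 at 25 °C. Between the cold temperatures it reached 0.131, lost without either 11 °C library or replicate 2 at 13 °C.

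Glutathione peroxidases of plants reduce lipid and hydrogen peroxides, largely with electrons from thioredoxin. The chloroplastic glutathione peroxidase 7 (LOC_Os06g08670, chromosome 6, 4321607 to 4325283) had 143 and 135 RPKM at 11 °C, 97.1 and 110 RPKM at 13 °C and 343 and 449 RPKM at 25 °C. All 4 cold libraries lay below both 25 °C libraries, and it fell by 1.49 ± 0.23 and 1.91 ± 0.23 (limma, adjusted p = 0.00114 at 11 °C and 0.00043 at 13 °C). Glutathione peroxidase 2 (LOC_Os11g18170) fell alongside it, by 1.75 ± 0.21 at 11 °C and 1.52 ± 0.21 at 13 °C. The mitochondrial glutathione peroxidase 6 (LOC_Os04g46960) had 204 and 248 RPKM at 11 °C, 221 and 284 RPKM at 13 °C and 110 and 178 RPKM at 25 °C. It rose by 0.84 ± 0.29 at 13 °C (adjusted p = 0.048), lost without any library except replicate 2 at 25 °C (0.0662 to 0.242). Glutathione peroxidase 4 (LOC_Os03g24380) rose by 0.80 ± 0.20 at 11 °C (adjusted p = 0.0118; without replicate 2 at 11 °C it was 0.083). The further phospholipid hydroperoxide type (LOC_Os02g44500) rose by 0.73 ± 0.20 at 13 °C (0.0198, and 0.0829 to 0.125 without either 13 °C library). None of the 5 members was called between 11 °C and 13 °C by limma without a replicate block or by voom, beside 35.4% of all tested loci by that limma fit, and 1 in each direction had an unadjusted limma p below 0.05.

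Peroxiredoxins reduce peroxides with an active-site cysteine that thioredoxins or glutaredoxins then restore. At 13 °C, 5 of 7 rose against 25 °C (71.4%) and none fell, beside 26.3% risen and 17.0% fallen of all tested loci. At 11 °C, 2 rose and 1 fell (28.6% and 14.3%), close to the 28.6% and 21.4% of all tested loci. Between the cold temperatures, 4 of 7 were lower at 11 °C (57.1%) and none was higher, beside 18.2% and 17.2% of all tested loci. In the direction of each count of none, 0 members had an unadjusted limma p below 0.05 and voom called 0. The class medians were 1.68 at 13 °C, 0.69 at 11 °C and -0.99 between the cold temperatures. Peroxiredoxin-2E-2 (LOC_Os02g09940, chromosome 2, 5166991 to 5168040), a chloroplast enzyme, had 2.46 and 2.44 RPKM at 11 °C, 31.5 and 37.4 RPKM at 13 °C and 0.477 and 0.830 RPKM at 25 °C. The 13 °C libraries stood far above all others, and the 25 °C values rest on 8 and 16 reads. It rose by 4.43 ± 0.25 at 13 °C, or 52.7-fold (limma, adjusted p = 2.16e-05), and by 1.07 ± 0.25 at 11 °C (0.00801), and was 14.1-fold lower at 11 °C than at 13 °C (-3.36 ± 0.25, 0.000127).

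Peroxiredoxin Q (LOC_Os06g09610, chromosome 6, 4888548 to 4890731), which is attached to thylakoids in Arabidopsis, had 30.5 and 46.6 RPKM at 11 °C, 79.1 and 124 RPKM at 13 °C and 9.42 and 12 RPKM at 25 °C. The 3 temperatures did not overlap; it rose by 1.73 ± 0.30 at 11 °C and 3.10 ± 0.30 at 13 °C (limma, adjusted p = 0.00222 and 0.000179). Its lower level at 11 °C than at 13 °C (-1.37 ± 0.30, adjusted p = 0.0104) was lost without replicate 1 at 11 °C or replicate 2 at 13 °C (0.0644 to 0.0705). The 2-Cys peroxiredoxin BAS1 (LOC_Os02g33450), the main peroxiredoxin of the stroma, had 94.4 and 127 RPKM at 11 °C, 190 and 253 RPKM at 13 °C and 44.4 and 85.8 RPKM at 25 °C. It rose by 1.81 ± 0.34 at 13 °C (adjusted p = 0.00354), and its 11 °C difference of 0.81 ± 0.34 did not pass (0.0788). Chloroplastic peroxiredoxin-2E-1 (LOC_Os06g42000) rose by 1.68 ± 0.37 at 13 °C.

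Peroxiredoxin-2C (LOC_Os01g48420), a cytosolic type and by mean RPKM the most abundant of the class, had 131 and 95.9 RPKM at 11 °C, 228 and 217 RPKM at 13 °C and 109 and 153 RPKM at 25 °C. It rose by 0.78 ± 0.26 at 13 °C (limma, adjusted p = 0.041, and 0.0503 to 0.16 without any library except replicate 2 at 25 °C). The mitochondrial peroxiredoxin-2F (LOC_Os01g16152) had 7.80 and 5.43 RPKM at 11 °C and 11.6 and 12.5 RPKM at 13 °C, a difference of -0.79 ± 0.25 (adjusted p = 0.0402), and the call was lost when any 1 of the 6 libraries was left out (0.0533 to 0.241). The BAS1-like locus (LOC_Os04g33970) was at 0.676 and 1.27 RPKM at 11 °C and 2.12 and 5.33 RPKM at 25 °C. It was the 1 peroxiredoxin that fell at 11 °C (-1.19 ± 0.38, adjusted p = 0.032, and 0.138 to 0.169 without replicate 1 at 11 °C or replicate 2 at 25 °C).

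**Figure D3:**
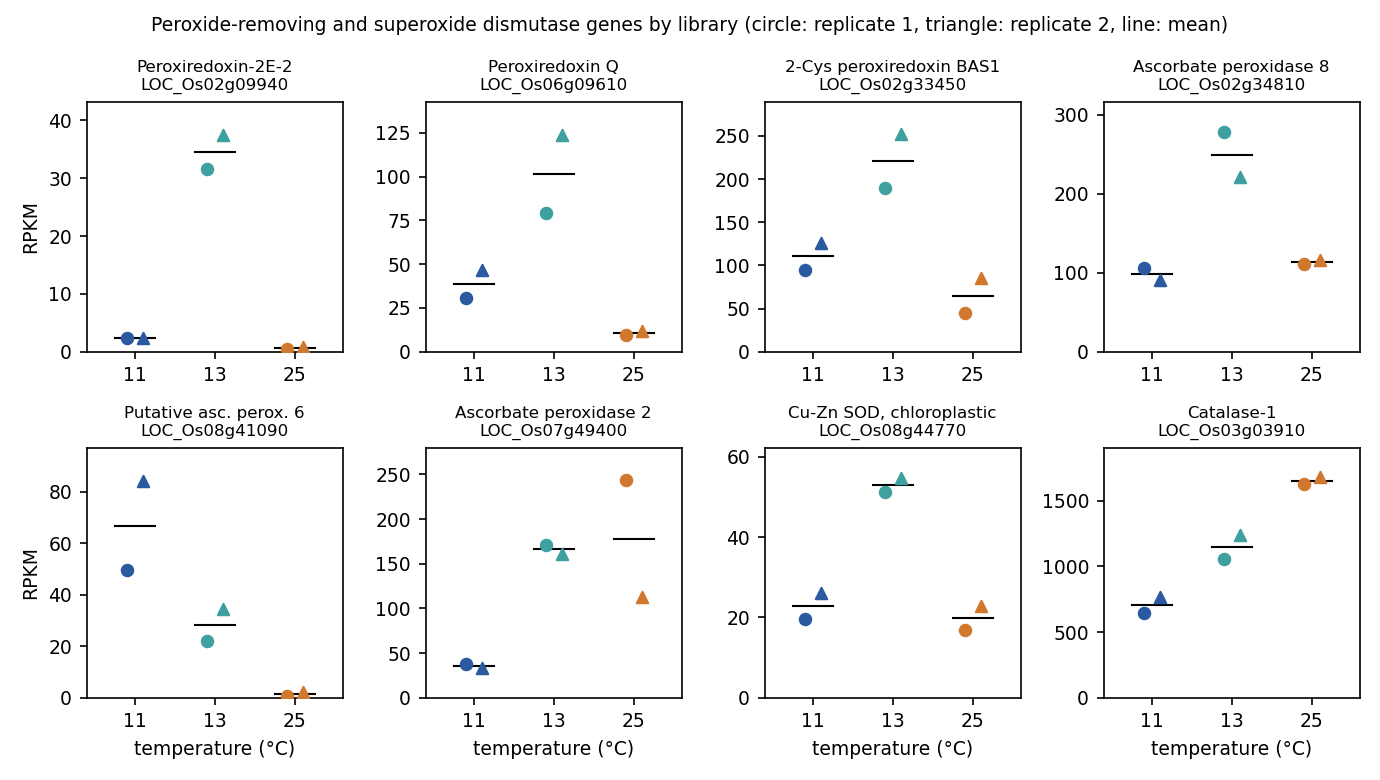
RPKM in each library at 11, 13 and 25 °C for 8 enzymes of superoxide and peroxide removal; circles are replicate 1, triangles replicate 2, lines means, and each panel has its own axis from 0. Peroxiredoxin-2E-2 reaches 31.5 and 37.4 RPKM at 13 °C and has at most 2.46 RPKM elsewhere; the other 4 chloroplast enzymes shown are also highest at 13 °C, while Catalase-1 stands in the order of temperature.

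Glutaredoxins, which reduce disulfides with glutathione and in part bind iron-sulfur clusters, held the members that fell most. Of 21 members, 6 rose (28.6%) and 8 fell (38.1%) at 11 °C, beside 28.6% and 21.4% of all tested loci. At 13 °C, 6 rose and 6 fell (28.6% each), beside 26.3% and 17.0%. Among 10 loci described as C-type or only as glutaredoxin, 9 were called at 11 °C (4 risen, 5 fallen). At 13 °C, 9 were called (3 risen, 6 fallen). At both temperatures the fallen include glutaredoxin-C1 and C11, which met the level limit only through the 25 °C libraries. Among 11 monothiol S-type loci, 5 and 3 were called at 11 °C and 13 °C. Of the 19438 tested loci, 9719 were called at 11 °C and 8414 (43.3%) at 13 °C. The difference between these shares was not tested.

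Glutaredoxin-C1 (LOC_Os01g27140, chromosome 1, 15124631 to 15125398) had 0.306 and 0.764 RPKM at 11 °C, 0.537 and 0.834 RPKM at 13 °C and 85.5 and 75.5 RPKM at 25 °C. In reads, that is 4 and 11, 7 and 12, and 1048 and 1064. Its mean at 25 °C was 150.5 times that at 11 °C and 117 times that at 13 °C, the largest fall of any member at either temperature (-5.74 ± 0.26 and -5.60 ± 0.26). Glutaredoxin-C10 (LOC_Os11g43520, chromosome 11, 26269974 to 26270588) had 2.01 and 1.21 RPKM at 11 °C, 0.192 and 0.434 RPKM at 13 °C and 59.3 and 42.9 RPKM at 25 °C. It fell by 4.32 ± 0.28 at 11 °C and fell by 5.30 ± 0.28 at 13 °C (limma, adjusted p = 3.09e-05 and 2e-05); its 13 °C values rest on 2 and 5 reads. Glutaredoxin-C15 (LOC_Os12g35340, chromosome 12, 21480112 to 21481075) had 8.59 and 8.85 RPKM at 11 °C, 1.77 and 1.33 RPKM at 13 °C and 74.3 and 47.2 RPKM at 25 °C. Unlike C1, it was higher at 11 °C than at 13 °C, by 1.94 ± 0.28 (adjusted p = 0.00156), and it fell by 2.63 ± 0.28 at 11 °C and 4.57 ± 0.28 at 13 °C. C10 had the same order of the cold temperatures (0.98 ± 0.28, adjusted p = 0.0301), a call lost without any 1 of the 4 cold libraries (0.0525 to 0.168).

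C10 and C15 each have a close neighbour on the same strand. Glutaredoxin-C11 (LOC_Os11g43530) starts 5221 bases past the end of C10, and C14 (LOC_Os12g35330) ends 10656 bases before the start of C15. C14 had 10 and 0 reads at 11 °C, 0 and 3 reads at 13 °C and 43 and 50 reads at 25 °C. C11 had 2 and 0 reads at 11 °C, 2 and 1 reads at 13 °C and 13 and 30 reads at 25 °C. C14 fell by 2.51 ± 0.46 at 11 °C and 2.98 ± 0.46 at 13 °C (limma, adjusted p = 0.00267 and 0.00138). C11 was lower by 1.51 ± 0.25 at 11 °C and 1.44 ± 0.25 at 13 °C. C11 and C1 reached 1 RPKM only at 25 °C, through which they met the level limit, so their falls are descriptions. No fold is given for C11 and C14, since they had no reads in some cold libraries. Such neighbouring family members can share reads, and no source used here says how the authors assigned those.

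The glutaredoxins that rose were led by C4 and C7. Chloroplastic glutaredoxin-C4 (LOC_Os02g40500, chromosome 2, 24566319 to 24568216) had 74.4 and 54.7 RPKM at 11 °C, 42.5 and 42.8 RPKM at 13 °C and 9.10 and 8.63 RPKM at 25 °C. It rose by 2.72 ± 0.22 at 11 °C and 2.15 ± 0.22 at 13 °C (limma, adjusted p = 6.78e-05 and 0.000242), and all cold libraries lay above both 25 °C libraries. Glutaredoxin-C7 (LOC_Os05g10930, chromosome 5, 6086093 to 6087029) had 40.1 and 54.2 RPKM at 11 °C, 141 and 225 RPKM at 13 °C and 14.4 and 11.7 RPKM at 25 °C. It was highest at 13 °C, where it rose by 3.68 ± 0.29, or 14.0-fold (adjusted p = 6.6e-05), and it was lower at 11 °C than at 13 °C by -1.91 ± 0.29 (0.00193). Monothiol glutaredoxin-S12 (LOC_Os12g07650), a chloroplast protein, rose by 1.38 ± 0.29 and 1.94 ± 0.29 at 11 °C and 13 °C. The locus described only as glutaredoxin (LOC_Os06g12030, chromosome 6, 6440413 to 6447606) had 6.24 and 8.03 RPKM at 11 °C, 0.466 and 0.606 RPKM at 13 °C and 2.03 and 2.17 RPKM at 25 °C. It rose by 1.38 ± 0.23 at 11 °C (adjusted p = 0.00161) and fell by 1.01 ± 0.23 at 13 °C (0.00819, but 0.0588 without replicate 1 at 13 °C). Between the cold temperatures it differed by 2.40 ± 0.23 (0.000288), with 13.3 times the mean level at 11 °C.

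Monothiol S2 and S9 separated the cold temperatures. S2 (LOC_Os01g09830) had 0.404 and 0.0733 RPKM at 11 °C, 4.22 and 4.26 RPKM at 13 °C and 3.36 and 2.85 RPKM at 25 °C. It was low only at 11 °C, where it had 5 and 1 reads, with -1.74 ± 0.23 against 25 °C and -2.09 ± 0.23 against 13 °C (limma, adjusted p = 0.000551 and 0.000499). S9 (LOC_Os05g48930) had 5.97 and 8.24 RPKM at 11 °C, 29.6 and 41.6 RPKM at 13 °C and 4.44 and 6.29 RPKM at 25 °C. It was high only at 13 °C, where it rose by 2.52 ± 0.28 (adjusted p = 0.000341), and it was lower at 11 °C than at 13 °C by -2.17 ± 0.28 (0.00109). The chloroplastic S7 (LOC_Os03g63420), by mean the most abundant glutaredoxin, had 55.6 and 52.6 RPKM at 11 °C, 83.0 and 89.2 RPKM at 13 °C and 72.3 and 135 RPKM at 25 °C. It fell by 0.86 ± 0.30 at 11 °C (adjusted p = 0.0426), lost without any library except replicate 1 at 25 °C (0.0591 to 0.174). C6 (LOC_Os04g42930), at 70.9 to 97.6 RPKM, and the S1, S6, S10 and S11 loci were not called in any comparison. Of the rest, C8 (LOC_Os06g44910) and S4 (LOC_Os01g34620) rose at both cold temperatures, by 0.66 to 0.92 and 0.71 to 0.77, S5 (LOC_Os01g47760) fell at 11 °C by 0.94 ± 0.29 and S8 (LOC_Os05g05730) was lower at 11 °C than at 13 °C by -1.02 ± 0.34. Each of these calls was lost in at least 1 fit with a library left out: C8 without replicate 2 at 11 °C (adjusted p = 0.0503) and, at 13 °C, without any library except replicate 2 at 25 °C (0.0629 to 0.164); S4 without any 1 of the 6 libraries (0.0508 to 0.18); S5 without either 11 °C library or replicate 1 at 25 °C (0.0661 to 0.127); S8 without any library except replicate 1 at 13 °C (0.0576 to 0.26).

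**Figure D4:**
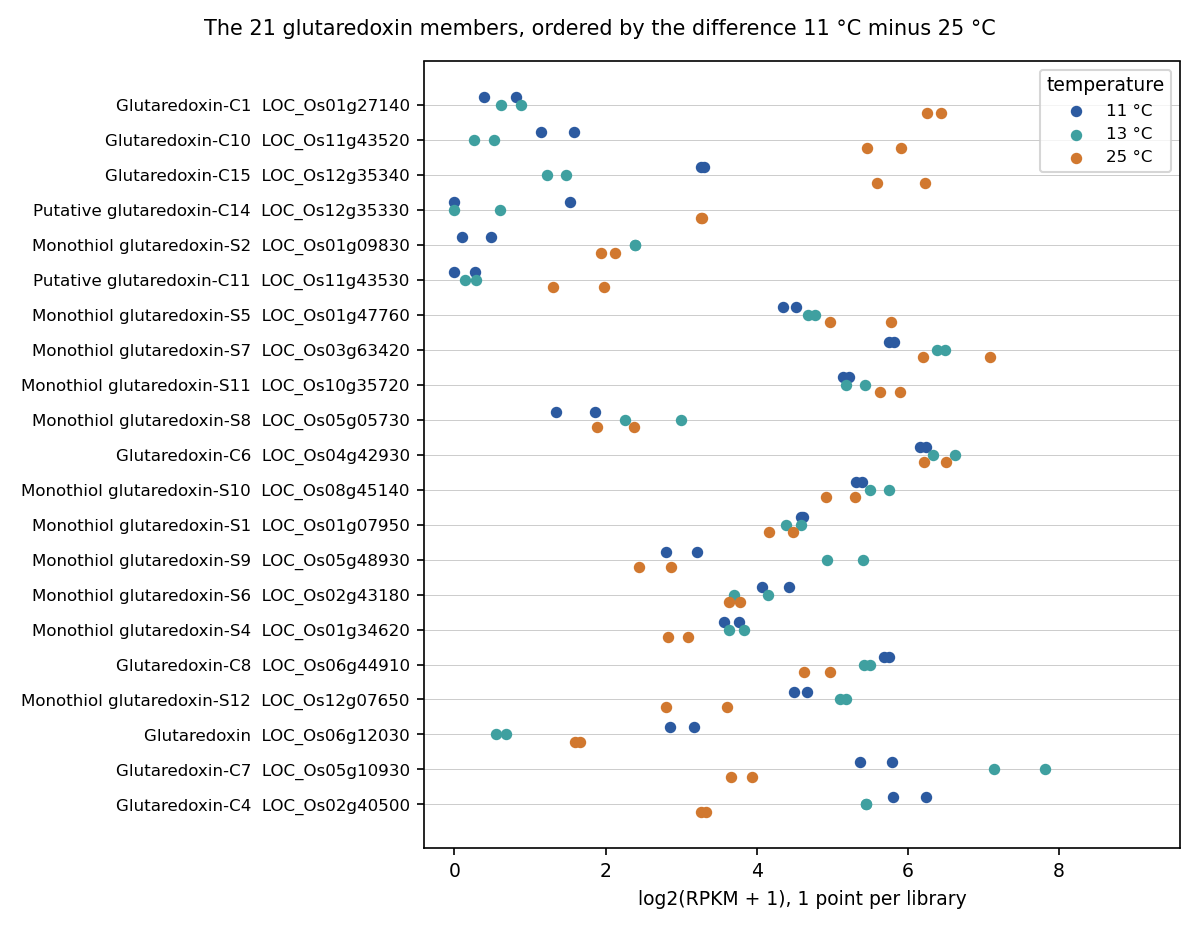
Level of the 21 glutaredoxin members as log2(RPKM + 1), 1 point per library, in 3 colours for 11, 13 and 25 °C, ordered from the largest fall to the largest rise at 11 °C against 25 °C. In the top rows C1, C10 and C15 the 25 °C points lie far right of the cold points, and in the bottom rows C7 and C4 far left of them.

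Thioredoxin reductases supply the electrons. The 6 members were 3 chains of ferredoxin-thioredoxin reductase and 3 NADPH-dependent enzymes. By limma, 1 rose at 11 °C, 3 rose at 13 °C and none fell against 25 °C. The shares over all tested loci were 28.6% risen and 21.4% fallen at 11 °C, and 26.3% and 17.0% at 13 °C. At an unadjusted limma p below 0.05, 2 members of the class were lower at 11 °C and 0 at 13 °C, and voom called 1 down at 11 °C. NTRA (LOC_Os06g22140, chromosome 6, 12848656 to 12852859) had 77.8 and 87.2 RPKM at 11 °C, 60.4 and 73.6 RPKM at 13 °C and 28.5 and 32.9 RPKM at 25 °C. It rose by 1.40 ± 0.21 and 1.10 ± 0.21 (limma, adjusted p = 0.00115 at 11 °C and 0.00433 at 13 °C). All its cold libraries lay above both 25 °C libraries, whereas the related NTRB (LOC_Os02g48290) had 37.3 and 35.1 RPKM at 11 °C, 41.4 and 43.0 RPKM at 13 °C and 53.5 and 51.8 RPKM at 25 °C and did not pass (-0.53 ± 0.19 at 11 °C, adjusted p = 0.0519). NTRC (LOC_Os07g46410), a chloroplast reductase with its own thioredoxin domain, rose by 1.00 ± 0.31 at 13 °C (adjusted p = 0.0308, and 0.144 to 0.192 without replicate 2 at 13 °C or replicate 1 at 25 °C).

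The catalytic chain of ferredoxin-thioredoxin reductase (LOC_Os09g07570) had 191 and 209 RPKM at 11 °C, 318 and 364 RPKM at 13 °C and 126 and 188 RPKM at 25 °C. It rose by 1.14 ± 0.26 at 13 °C (limma, adjusted p = 0.00838, and 0.0644 without replicate 2 at 13 °C). It was lower at 11 °C than at 13 °C by -0.77 ± 0.26 (adjusted p = 0.0497, lost without any 1 of the 4 cold libraries, 0.125 to 0.231). The abundant locus for the variable chain (LOC_Os02g42570) had 87.0 and 137 RPKM at 11 °C, 194 and 326 RPKM at 13 °C and 160 and 334 RPKM at 25 °C, with replicate 2 above replicate 1 at each temperature. It was not called without a replicate block.

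The 39 thioredoxins and thioredoxin-like proteins were the largest class. At 11 °C, 19 fell (48.7%) and 5 rose (12.8%), beside 21.4% fallen and 28.6% risen of all tested loci. At 13 °C, 13 fell (33.3%) and 6 rose (15.4%), beside 17.0% and 26.3%. The class medians were -0.68 and -0.31, beside 0.13 and 0.12 over all tested loci. Of 7 H-type loci, the cytosolic thioredoxins, 5 fell (71.4%) and 1 rose (14.3%) at 11 °C. There were 8 loci of the M, F, X, Y and O types, which work in chloroplasts or mitochondria. Of these, 5 fell (62.5%) and none rose at 11 °C, and 3 fell (37.5%) and none rose at 13 °C. In this group 0 passed an unadjusted limma p of 0.05 upward and voom called 0 up. The 18 thioredoxin-like loci had 3 risen (16.7%) and 7 fallen (38.9%) at each cold temperature.

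Thioredoxin-like 3-1 (LOC_Os02g53400, chromosome 2, 32684150 to 32686062), described as chloroplastic, rose more than any other member at 11 °C and at 13 °C. It had 94.2 and 93.1 RPKM at 11 °C, 84.1 and 87.5 RPKM at 13 °C and 0.369 and 0.578 RPKM at 25 °C, which are 1359 and 1480, 1209 and 1391, and 5 and 9 reads. The replicates lay close together and the cold temperatures far above 25 °C. It rose by 6.01 ± 0.21 at 11 °C, or 198-fold (limma, adjusted p = 5.22e-06), and by 5.88 ± 0.21 at 13 °C, or 181-fold (7.85e-06). Between 11 °C and 13 °C the difference of 0.12 ± 0.21 did not pass (0.675). Its relatives did not share this: thioredoxin-like 3-2 (LOC_Os02g57380) had 5.91 and 8.19 RPKM at 11 °C, 5.59 and 6.65 RPKM at 13 °C and 5.99 and 10.1 RPKM at 25 °C and was not called, and thioredoxin-like 3-3 (LOC_Os04g47260) had a difference of -0.85 ± 0.26 at 11 °C (adjusted p = 0.026, and 0.0965 to 0.146 without either 11 °C library or replicate 1 at 25 °C).

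CDSP32 (LOC_Os07g29410), a chloroplast thioredoxin-like protein first found in droughted potato, was the abundant riser, with 464 and 339 RPKM at 11 °C, 485 and 508 RPKM at 13 °C and 221 and 169 RPKM at 25 °C. All its cold libraries lay above both 25 °C libraries. It rose by 1.04 ± 0.26 at 11 °C (limma, adjusted p = 0.0118, but 0.0924 without replicate 1 at 11 °C) and by 1.36 ± 0.26 at 13 °C (0.00395). The chloroplastic CITRX (LOC_Os08g29110), known in tomato as a partner of a disease resistance receptor, rose by 0.80 ± 0.25 and 0.85 ± 0.25. Its calls were lost without any of replicate 1 or 2 at 11 °C, replicate 1 at 13 °C and replicate 1 at 25 °C (11 °C, adjusted p = 0.0503 to 0.149) and without either 13 °C library or replicate 1 at 25 °C (13 °C, 0.0922 to 0.138). LOC_Os05g43252, an H-type thioredoxin, also rose at both temperatures (0.97 ± 0.23 and 1.21 ± 0.23), and its 11 °C call was lost without replicate 1 at 11 °C (adjusted p = 0.0688). The TTL1-type LOC_Os01g42960, a protein with TPR repeats, is counted as risen at both (0.72 ± 0.23 and 1.22 ± 0.23), but it reached 1 RPKM only in the 13 °C libraries, through which it met the level limit, so its 13 °C value is a description; its 11 °C call was lost without replicate 2 at 11 °C or either 25 °C library (0.092 to 0.158).

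Thioredoxin M5 (LOC_Os12g08730, chromosome 12, 4461674 to 4463096), a chloroplast thioredoxin, had the highest mean RPKM in its class. It had 881 and 861 RPKM at 11 °C, 822 and 808 RPKM at 13 °C and 2100 and 1608 RPKM at 25 °C. The cold libraries lay close together and below both 25 °C libraries, a difference of -1.08 ± 0.27 at 11 °C and -1.17 ± 0.27 at 13 °C (limma, adjusted p = 0.0111 and 0.00872). Without either 11 °C library the 11 °C value was 0.065 to 0.0869, and without either 13 °C library the 13 °C value was 0.0693 to 0.0929. Thioredoxins M1 (LOC_Os02g42700) and M2 (LOC_Os04g44830) fell too, M2 by 1.88 ± 0.30 at 11 °C and 2.39 ± 0.30 at 13 °C. Thioredoxins X and Y were not called; X (LOC_Os04g57930) had 102 and 88.8 RPKM at 11 °C, 128 and 121 RPKM at 13 °C and 83.2 and 96.3 RPKM at 25 °C.

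Thioredoxin F (LOC_Os01g68480, chromosome 1, 39794226 to 39795811), which activates Calvin cycle enzymes in the light, separated 11 °C from the other temperatures. It had 34.9 and 29.9 RPKM at 11 °C, 166 and 165 RPKM at 13 °C and 148 and 130 RPKM at 25 °C. The 11 °C libraries lay far below the other 4. It fell by 2.07 ± 0.21 at 11 °C (limma, adjusted p = 0.000149), did not pass at 13 °C (0.26 ± 0.21, 0.354), and was 5.11-fold lower at 11 °C than at 13 °C (-2.32 ± 0.21, 0.000236). The H-type locus LOC_Os07g08840 (chromosome 7, 4574245 to 4576234), had 191 and 110 RPKM at 11 °C, 514 and 491 RPKM at 13 °C and 563 and 658 RPKM at 25 °C, also lowest at 11 °C but highest at 25 °C. It fell by 2.06 ± 0.30 at 11 °C (adjusted p = 0.000851) and was lower at 11 °C than at 13 °C by -1.78 ± 0.30 (0.00299). The mitochondrial thioredoxin O (LOC_Os06g45510) had 6.18 and 9.04 RPKM at 11 °C, 14.8 and 23.1 RPKM at 13 °C and 15.3 and 26.1 RPKM at 25 °C, with -1.31 ± 0.34 at 11 °C against 25 °C and -1.20 ± 0.34 against 13 °C. These calls were lost without replicate 1 at 11 °C, the first also without replicate 2 at 25 °C (adjusted p = 0.0748 to 0.0854) and the other without replicate 2 at 13 °C (0.131 to 0.153).

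H4-1 and H4-2 were low at both cold temperatures. Thioredoxin H4-1 (LOC_Os01g07376, chromosome 1, 3489310 to 3491991) had 6.44 and 5.41 RPKM at 11 °C, 7.31 and 7.11 RPKM at 13 °C and 36.3 and 41.5 RPKM at 25 °C. It fell by 2.53 ± 0.22 and 2.28 ± 0.22, and H4-2 (LOC_Os05g07690) by 1.64 ± 0.22 and 1.09 ± 0.22 (limma, adjusted p = 8.73e-05 and 0.000177 for H4-1, 0.000567 and 0.00465 for H4-2). The loci described as H2-2 were higher at 13 °C than at 11 °C, LOC_Os09g38670 with 29.0 and 24.5 RPKM at 11 °C and 81.0 and 69.2 RPKM at 13 °C, LOC_Os03g58630 with 34.2 and 43.5 RPKM at 11 °C and 85.3 and 96.2 RPKM at 13 °C. The differences of 11 °C minus 13 °C were -1.46 ± 0.28 and -1.21 ± 0.22 (adjusted p = 0.00558 and 0.00448). LOC_Os09g38670 also rose at 13 °C against 25 °C (1.23 ± 0.28, adjusted p = 0.00856; without replicate 1 at 13 °C it was 0.0502).

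Thioredoxin-like 1-2 (LOC_Os03g21000, chromosome 3, 11919251 to 11921367) had 33.5 and 39.8 RPKM at 11 °C, 63.3 and 80.9 RPKM at 13 °C and 170 and 204 RPKM at 25 °C. It stood in the order of temperature and fell by 2.32 ± 0.23 at 11 °C and 1.37 ± 0.23 at 13 °C (limma, adjusted p = 0.000144 and 0.0021). Thioredoxin-like 1-1 (LOC_Os07g48510) had 1.95 and 2.24 RPKM at 11 °C, 0.439 and 0.578 RPKM at 13 °C and 8.74 and 9.92 RPKM at 25 °C. CXXS1 (LOC_Os04g53740, chromosome 4, 32019370 to 32022727) had 9.24 and 10.5 RPKM at 11 °C, 2.09 and 3.15 RPKM at 13 °C and 20.7 and 25.6 RPKM at 25 °C. Both were lowest at 13 °C. LOC_Os03g07226, which shares the description of LOC_Os07g48510, was not called in any comparison. Its differences against 25 °C were -0.12 ± 0.30 at 11 °C and 0.23 ± 0.30 at 13 °C. CXXS1 fell by 1.14 ± 0.26 at 11 °C, fell by 2.75 ± 0.26 at 13 °C, and was higher at 11 °C than at 13 °C by 1.60 ± 0.26 (adjusted p = 0.00259). Thioredoxin-like 1-1 fell by 1.74 ± 0.22 and 2.77 ± 0.22, and its difference of 1.04 ± 0.22 between 11 °C and 13 °C (0.00902) was lost without replicate 2 at 11 °C or replicate 1 at 13 °C (0.0647 to 0.0675). For thioredoxin-like 1-2 the difference between 11 °C and 13 °C (-0.95 ± 0.23, 0.0144) was lost without replicate 1 at 11 °C or replicate 2 at 13 °C (0.0924 to 0.114).

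The 3 loci described as chloroplastic AAED1 differed, among them a pair of neighbours 831 bases apart. LOC_Os03g51950 (chromosome 3, 29794698 to 29797800) had 100.4 and 141 RPKM at 11 °C, 99.2 and 137 RPKM at 13 °C and 61.9 and 109 RPKM at 25 °C and was not called. Its neighbour LOC_Os03g51960 (29798632 to 29800528) had 59.8 and 68.4 RPKM at 11 °C, 38.1 and 54.8 RPKM at 13 °C and 114 and 279 RPKM at 25 °C. It fell by 1.46 ± 0.40 and 1.94 ± 0.40 (limma, adjusted p = 0.0173 and 0.00568), its 25 °C libraries lying far apart, and the 11 °C call was lost without replicate 1 at 11 °C or replicate 2 at 25 °C (0.0593 to 0.0669). The copy elsewhere on the chromosome, LOC_Os03g17600, fell by 1.55 ± 0.27 and 1.20 ± 0.27 (the 13 °C call had adjusted p = 0.0646 without replicate 1 at 13 °C). HCF164 (LOC_Os03g55820), a thylakoid protein needed in Arabidopsis to assemble the cytochrome b6f complex, fell by 1.28 ± 0.24 at 11 °C. At 13 °C its difference was -0.86 ± 0.24 (adjusted p = 0.0221, and 0.0761 to 0.12 without either 13 °C library or replicate 1 at 25 °C). At the other end, the YLS8 locus LOC_Os10g34520, which resembles a splicing factor, had no difference larger than 0.11. It had 85.1 and 66.9 RPKM at 11 °C, 76.4 and 64.6 RPKM at 13 °C and 79.7 and 61.1 RPKM at 25 °C. A further YLS8 locus, LOC_Os07g10256, had -0.57 ± 0.25 at 11 °C and -0.53 ± 0.25 at 13 °C. These differences did not pass (limma, adjusted p = 0.0861 and 0.119). Clot (LOC_Os06g21550) had 7.94 and 7.67 RPKM at 11 °C, 3.60 and 3.41 RPKM at 13 °C and 12.6 and 12 RPKM at 25 °C and fell by 1.56 ± 0.22 at 13 °C (adjusted p = 0.001). TDX (LOC_Os09g23650), thioredoxin H2-1 (LOC_Os07g09310), the transmembrane protein 2 homolog (LOC_Os01g10340) and thioredoxin-like 4 (LOC_Os02g35900) had further calls, all of them falls or lower levels at 11 °C than at 13 °C, and each lost in at least 1 fit with a library left out (highest adjusted p = 0.0589, 0.121, 0.147 and 0.0946 in that order, at 11 °C against 25 °C or, for thioredoxin-like 4, against 13 °C). The PLP3B, thioredoxin Y, M3, thioredoxin-like 2 and thioredoxin domain-containing protein 9 loci were not called in any comparison.

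**Figure D5:**
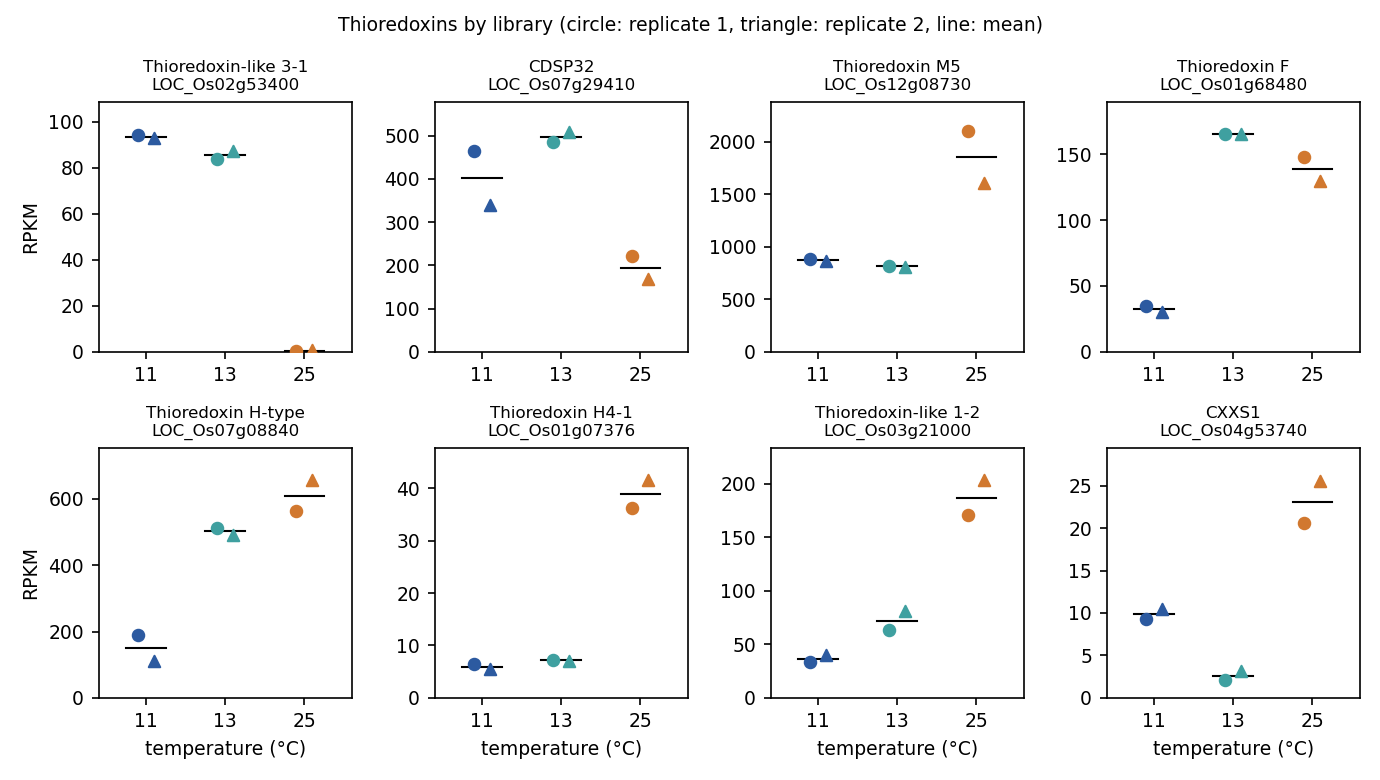
RPKM in each library at 11, 13 and 25 °C for 8 thioredoxins and thioredoxin-like proteins; circles are replicate 1, triangles replicate 2, lines means, and each panel has its own axis from 0. Thioredoxin-like 3-1 is near 0 at 25 °C and at 84.1 to 94.2 RPKM in the cold, thioredoxin F is low only at 11 °C, and CXXS1 is lowest at 13 °C.

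By the compartment named in the descriptions, 41 members were chloroplastic, 6 mitochondrial and 59 named neither. The 59 include the chloroplast reductase NTRC and the variable chains of ferredoxin-thioredoxin reductase, so they are not a set from outside chloroplasts. Of the chloroplastic members, 8 rose and 12 fell at 11 °C (19.5% and 29.3%), beside 28.6% and 21.4% of all tested loci, with a median of -0.21. At 13 °C, 15 rose and 9 fell (36.6% and 22.0%), beside 26.3% and 17.0% of all tested loci, with a median of 0.26. Between the cold temperatures, 1 chloroplastic member was higher at 11 °C (2.44%) and 11 were lower (26.8%), beside 17.2% and 18.2% of all tested loci. The 1 that was higher was thioredoxin-like 1-1 (LOC_Os07g48510). Members with no organelle named had 10 risen (16.9%) and 23 fallen (39.0%) at 11 °C, and 12 (20.3%) and 15 (25.4%) at 13 °C. Between the cold temperatures, 9 of them were higher at 11 °C (15.3%) and 11 lower (18.6%), close to the shares of all tested loci.

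Of the 85 other redox loci found by fixed words in the descriptions, 19 rose and 27 fell at 11 °C (22.4% and 31.8%), beside 28.6% and 21.4% of all tested loci. At 13 °C, 26 rose and 20 fell (30.6% and 23.5%), beside 26.3% and 17.0%. Between the cold temperatures, 12 were higher at 11 °C (14.1%) and 23 were lower (27.1%), beside 17.2% and 18.2% of all tested loci. Disulfide and sulfoxide partners had 6 risen (26.1%) and 9 fallen (39.1%) of 23 at 11 °C and 6 and 6 at 13 °C (26.1% each). Sulfiredoxin (LOC_Os06g07760), which repairs over-oxidized 2-Cys peroxiredoxins, had 46.8 and 37.2 RPKM at 11 °C, 41.9 and 44.2 RPKM at 13 °C and 92.7 and 126 RPKM at 25 °C and fell by 1.35 ± 0.24 at 11 °C (limma, adjusted p = 0.00219). Of 10 loci of ascorbate synthesis and oxidation, 3 fell at 11 °C, 4 rose and 2 fell at 13 °C, and 6 were lower at 11 °C than at 13 °C. Glutathione synthesis and use had 4 risen (30.8%) and 1 fallen (7.69%) of 13 at 11 °C and 4 (30.8%) and 2 (15.4%) at 13 °C. Superoxide and iron loci had 1 risen (6.25%) and 5 fallen (31.2%) of 16 at 11 °C and 5 (31.2%) and 4 (25.0%) at 13 °C. The words for NADPH and ferredoxin supply took 23 loci, also ferredoxin-dependent enzymes. Of these, 8 rose (34.8%) and 9 fell (39.1%) at 11 °C, and 7 (30.4%) and 6 (26.1%) at 13 °C. Ferredoxins are the donors to ferredoxin-thioredoxin reductase, and their loci differed. Ferredoxin-3 locus LOC_Os04g33630 rose by 0.88 ± 0.27 at 11 °C and 2.13 ± 0.27 at 13 °C. Its namesake LOC_Os03g61960 was not called. Ferredoxin-6 locus LOC_Os01g64120 fell at both (-1.88 ± 0.43 and -3.22 ± 0.43), with 5.54 and 17.3 RPKM at 25 °C. Its namesake LOC_Os05g37140 fell at 11 °C only (-1.20 ± 0.28). How these calls stand with a library left out is not given here. Chloroplastic ferredoxin-1 (LOC_Os08g01380) had 513 and 300 RPKM at 11 °C, 2430 and 3320 RPKM at 13 °C and 2060 and 2700 RPKM at 25 °C. It fell by 2.59 ± 0.36 at 11 °C (adjusted p = 0.000675) and differed by -2.85 ± 0.36 between 11 °C and 13 °C (0.000873), the order also seen for thioredoxin F. A further locus described as ferredoxin-1 (LOC_Os06g28050) had 61.2 and 68.2 RPKM at 11 °C, 21.3 and 27.5 RPKM at 13 °C and 0.424 and 0.0194 RPKM at 25 °C. It rose by 5.77 ± 0.26 at 11 °C and 4.39 ± 0.26 at 13 °C (adjusted p = 9.03e-06 and 2.6e-05). Its 25 °C values lay near 0, so the size of these rises is imprecise. Ferredoxin-2 (LOC_Os03g48040) had 34.7 and 45.2 RPKM at 11 °C, 67.0 and 94.9 RPKM at 13 °C and 13.6 and 20.4 RPKM at 25 °C, with differences of 1.20 ± 0.28 and 2.19 ± 0.28 against 25 °C (adjusted p = 0.00929 and 0.000627). Its 11 °C call was lost without replicate 2 at 11 °C or replicate 1 at 25 °C (0.0539 to 0.0615).

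Most members were well covered: 10 had under 10 reads in some library and 14 reached 1 RPKM in fewer than 6 libraries. The members nearest the level limit were the TTL1-type LOC_Os01g42960, at 0.0382 to 1.96 RPKM, and glutaredoxin-C11, at 0 to 2.96 RPKM. Just outside it were the TTL1-type loci LOC_Os05g11990, with at most 1.31 RPKM, and LOC_Os05g50990, with at most 0.956 RPKM. The 10 loci left out by the limit also include an ascorbate peroxidase 3, a 1-Cys peroxiredoxin B and monothiol glutaredoxin-S3. Of the 106 members, 23 share their description with another member, and 4 pairs lie within 20000 bases of each other; reads of such close relatives may be divided between loci.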

How the data were processed

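The authors deposited 1 table of RPKM for all 6 libraries; reads were aligned with TopHat2 2.0.12, per the submitters' processing notes. The build, the gene models, the counter and whether strand was used: not given in the sources used here. Coordinates are as the deposited table has them. For 99.99% of tested loci written LOC_Os, and all 106 members, RPKM corresponded to whole reads within a tolerance of 0.02 after each library total was recovered. Loci with at least 1 RPKM in at least 2 libraries were analysed as log2(RPKM + 1) in limma 3.58.1 (R 4.3.3), with 6 libraries in 1 model, a mean-variance trend, 3 two-sided contrasts and Benjamini-Hochberg adjustment over 19438 loci. The script was tested on simulated data. Read numbers carry counting error only.

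Members, lists and tests were chosen with earlier results of these data known. Members described were the 10 largest rises and falls at each cold temperature against 25 °C, the 5 largest between 11 °C and 13 °C, and the most abundant and most changed of each class. Other members named were chosen after their values were seen, to describe each class. Alternatives covered pseudocount, filter, scaling, trend, the groups fitted, a replicate block and each library left out. Voom on recovered reads was added after seeing the data. Promoter motifs were not analysed here.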

Additional observations from a re-analysis of the deposited data

How the results depend on the processing

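No called member changed direction under any alternative run. With a replicate block, 30 members rose at 11 °C against 25 °C (19 without it), and 38 were lower at 11 °C than at 13 °C (24 without it). In either direction it called 76 members at 11 °C, 74 at 13 °C and 51 between the cold temperatures (55, 54 and 34 without it). Calls over all 19438 tested loci grew as well, to 13479, 12228 and 11351 (9719, 8414 and 6884 without it). Replicates with the same number deviated together (r = 0.61, 0.669 and 0.713 across loci for 11 and 25 °C, 13 and 25 °C, and 11 and 13 °C), but the labels do not say what a number shares. The block kept all 55, 54 and 34 calls. Among counts of none, it called 1 up at 11 °C for superoxide dismutases (iron enzyme 1 LOC_Os06g02500, adjusted p = 0.00324) and for catalases (isozyme B LOC_Os06g51150, 0.0291), and 2 thioredoxin reductases down there (variable chain LOC_Os02g42570, 0.00114, and NTRB LOC_Os02g48290, 0.0061). At 13 °C it called down BAS1-like LOC_Os04g33970 (0.00784) and ascorbate peroxidase 4 LOC_Os09g36750 (0.0146), and up thioredoxin X LOC_Os04g57930 (0.0305). Between 11 °C and 13 °C it called glutathione peroxidases LOC_Os02g44500 lower (0.011) and LOC_Os03g24380 higher (0.0164), and the variable chain lower (0.00108). It also called thioredoxin M3 LOC_Os04g36640 down (0.0012) and BAS1 LOC_Os02g33450 up (0.00505) at 11 °C and iron dismutase 2 LOC_Os06g05110 down at 13 °C (0.00114). With no filter on low values, 21 members were called between 11 °C and 13 °C, 6 higher and 15 lower; the cause was not tested. Leaving out 1 library gave 12 to 21 rises at 11 °C and 19 to 30 at 13 °C. Between 11 °C and 13 °C it gave 18 to 37 calls, 4 to 10 higher and 12 to 27 lower. In every such fit the calls kept were 31 of 55, 35 of 54 and 14 of 34. The uncalled cytosolic glutathione reductase LOC_Os02g56850 (0.08 at 11 °C against 25 °C) turned to -0.02 with quantile normalization, -0.06 with median-of-ratios scaling and ranged between -0.22 and 0.39 with a library left out; the uncalled peroxiredoxin-2C LOC_Os01g48420 (-0.20) ranged between -0.44 and 0.04 with a library left out, above 0 without replicate 2 at 11 °C (0.02) or at 25 °C. The median of all loci at 11 °C moved to -0.03 and 0.01 under these scalings (0.13 as reported) and at 13 °C to -0.03 and -0.01 (0.12), so small rises depend on the scaling. Voom, chosen after seeing the data, kept 54, 53 and 33 calls. With 2 libraries per temperature, no library can be judged against its own group, and members under 10 reads have imprecise levels.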
